A study of Rattus norvegicus with 25 samples.

Results

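The miRNAs described here are the mature rat miRNAs of the miR-7, miR-9, miR-124, miR-128 and miR-488 families, which are best known from neurons and neuroendocrine cells, as they were counted in sperm. The families were chosen with earlier results of these data known. Members were then taken by name, as every row of the deposited miRNA count matrix that begins with rno-miR-9a-, rno-miR-124-, rno-miR-128-, rno-miR-488-, rno-miR-7a- or rno-miR-7b. This gave 11 of 562 rows, namely rno-miR-7a-5p, rno-miR-7a-1-3p, rno-miR-7a-2-3p, rno-miR-7b, rno-miR-9a-5p, rno-miR-9a-3p, rno-miR-124-3p, rno-miR-124-5p, rno-miR-128-3p, rno-miR-128-1-5p and rno-miR-488-3p, written below without the species prefix. Of these, 9 passed the filter on low counts and were tested. The 2 others, miR-128-1-5p and miR-124-5p, were at 0 in 19 and 18 of the 25 libraries and had at most 5 and 4 counts in any library.

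Small RNA was sequenced from cauda epididymal sperm, purified by 2 rounds of swim-up, of Sprague-Dawley rats (the F0 generation) that self-administered morphine or saline intravenously. Sperm was taken when self-administration ended (F0_SAL, n = 7; F0_MOR, n = 7) or 90 days later without drug (F0_ABS-SAL, n = 5; F0_ABS-MOR, n = 6). All 4 groups went through the self-administration procedure, with saline as the solution in the control groups. The labels call the libraries of a group biological replicates. Abstinent males were older at collection, so age, time since self-administration and any difference in when libraries were made cannot be told apart in a comparison of collection times. Libraries are named here by the letter of their column, and the columns were matched to collection times by group size, because no label spells out the abbreviations in the column names.

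A miRNA guides an Argonaute protein to messenger RNAs through its seed, bases 2 to 8 from the 5′ end, and lowers their stability or translation. miR-124 is among the most abundant miRNAs of neurons and promotes neuronal differentiation. miR-9 acts in neural progenitors, and both arms of its hairpin are functional. miR-128 is enriched in brain and restrains neuronal excitability, and miR-7 is enriched in neuroendocrine and pancreatic islet cells and represses alpha-synuclein. miR-488 is processed from an intron of Astn1, a gene of neuronal migration.

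Mature sequences are shown for the tested members because seeds and near-identity between members bear on how their counts can be read. RefSeq (assembly GRCr8) held a sequence under the name of 9 of the 11 members, 8 of which were tested. Capitals mark the seed.
miR-7a-5p: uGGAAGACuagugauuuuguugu
miR-7b: uGGAAGACuugugauuuuguugu
miR-7a-1-3p: aCAACAAAucacagucugccau
miR-7a-2-3p: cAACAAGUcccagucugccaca
miR-128-3p: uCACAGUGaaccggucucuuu
miR-9a-5p: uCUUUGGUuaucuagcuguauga
miR-9a-3p: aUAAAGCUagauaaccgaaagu
miR-488-3p: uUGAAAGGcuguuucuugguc

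miR-7a-5p and miR-7b shared their seed and differed by 1 base, A10U, with positions counted from 1 at the 5′ end and the base of miR-7a-5p given first. The other printed members each had a seed of their own within the set. In GRCr8, miR-7a-5p lies at 2 hairpins, one at chr17:6278710-6278732 on the plus strand within the span of Hnrnpk and the other at chr1:142215818-142215840. miR-7a-1-3p and miR-7a-2-3p come from the opposite arms of these same hairpins, respectively. miR-7b lies at chr9:1167464-1167486, and miR-488-3p lies at chr13:73216589-73216609 within the span of Astn1. miR-128-3p is encoded within the spans of R3hdm1 (chr13:42251933-42251953) and Arpp21 (chr8:120963807-120963827), and miR-9a-5p at 3 hairpins on chromosomes 1 and 2. A count of miR-7a-5p, miR-128-3p or a miR-9a arm therefore does not tell which hairpin it came from.

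Libraries held 1032386 to 3203211 miRNA counts, and the middle library of each group held 1701012 (F0_SAL), 1428308 (F0_MOR), 2334377 (F0_ABS-SAL) or 2134169 (F0_ABS-MOR). Levels below are counts per 1000000 counts (CPM) after TMM scaling, which aligns the bulk of miRNAs between libraries. Defining miRNAs of sperm and spermatids (21 rows, such as miR-34c) summed to 207663 to 778403 CPM per library, with group medians of 563244, 476138, 347355 and 403849 in the order above. Of the 18 tested, 6 were lower in F0_ABS-SAL than in F0_SAL, where 10.7% of all miRNAs were lower and 22.4% higher by the rule given below. In F0_ABS-MOR against F0_MOR, where 10.1% of all miRNAs were lower and 11% higher, 2 of them were lower. Of 8 tested epididymal epithelial miRNAs 6 and 4 were higher in the same comparisons, as were 4 and 2 of 6 muscle miRNAs and both endothelial ones. Leukocyte miRNAs gave 0 calls and 1 of 6 lower, and erythroid miRNAs 0 calls and 3 of 3 lower. Library R of F0_ABS-SAL stood apart, with 81891 CPM of muscle miRNAs against 15781 to 36479 in the other abstinent libraries. The muscle sum is mostly miR-143-3p, which averaged 20694 CPM over all libraries, while the next, miR-145-3p, averaged 139 CPM. The part of these other RNAs in the results below was not tested, and in bulk sperm RNA fewer cells of a type and less RNA per cell cannot be told apart.

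The members spanned more than 4 orders of magnitude. miR-7a-5p was the miRNA with the rank 2 of all 562 by mean CPM, at 150005 CPM over 25 libraries, and took 8.69% to 20.2% of all miRNA counts of a library, with a median of 15.0%. miR-7b ranked 38 (3012 CPM), miR-128-3p 58 (1364 CPM) and miR-9a-5p 70 (799 CPM). miR-9a-3p (81.0 CPM) and miR-124-3p (73.3 CPM) ranked 154 and 161. miR-488-3p (11.2 CPM), miR-7a-1-3p (10.9 CPM) and miR-7a-2-3p (9.71 CPM) ranked 257, 258 and 263 and rested on 5 to 82 counts per library. Ranges over libraries overlapped between all neighbours in this order, except miR-7a-5p with miR-7b and miR-9a-5p with miR-9a-3p. By that measure the order of the other neighbours was not beyond the spread between libraries. For miR-128-3p the range was 554 to 2737 CPM, against 1446 to 5444 CPM for miR-7b and at most 1198 CPM for miR-9a-5p. The overlap of miR-488-3p with miR-124-3p rested on library R of F0_ABS-SAL alone, with 41.1 CPM of miR-488-3p. miR-7a-5p was thus a main component of these libraries, whereas miR-124-3p, a leading miRNA of neurons, ranked 161.

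**Figure D1:**
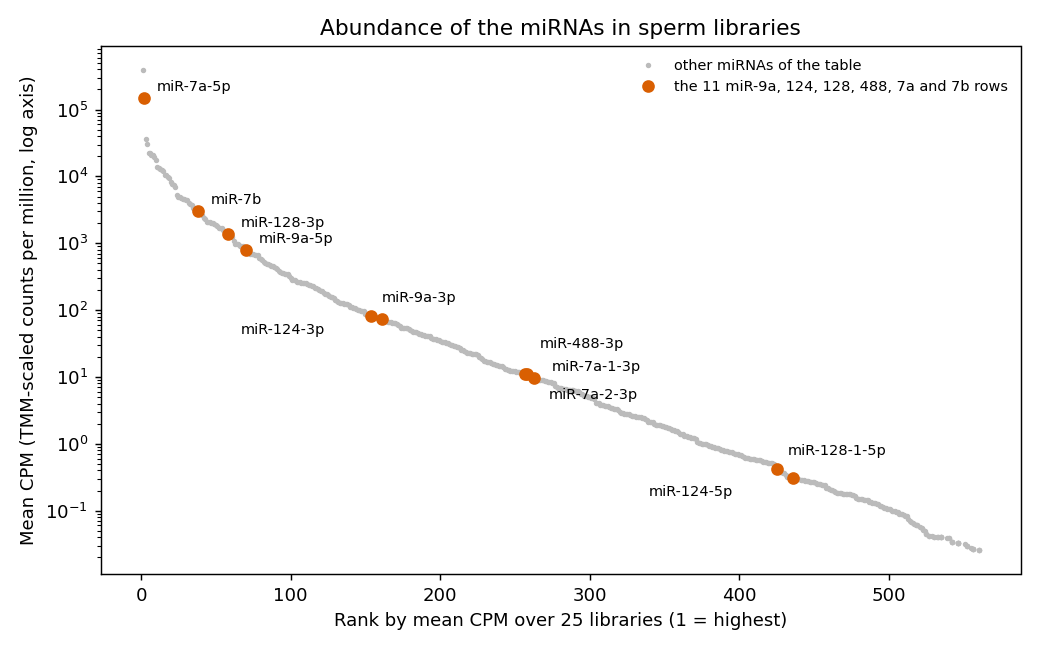
Mean CPM (TMM-scaled, log axis) of each miRNA over 25 libraries against its rank among 562 rows, with the 11 members in orange and all other miRNAs in grey. miR-7a-5p sits at rank 2 near 150005 CPM, and miR-488-3p, miR-7a-1-3p and miR-7a-2-3p sit together near 10 CPM.

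**Figure D2:**
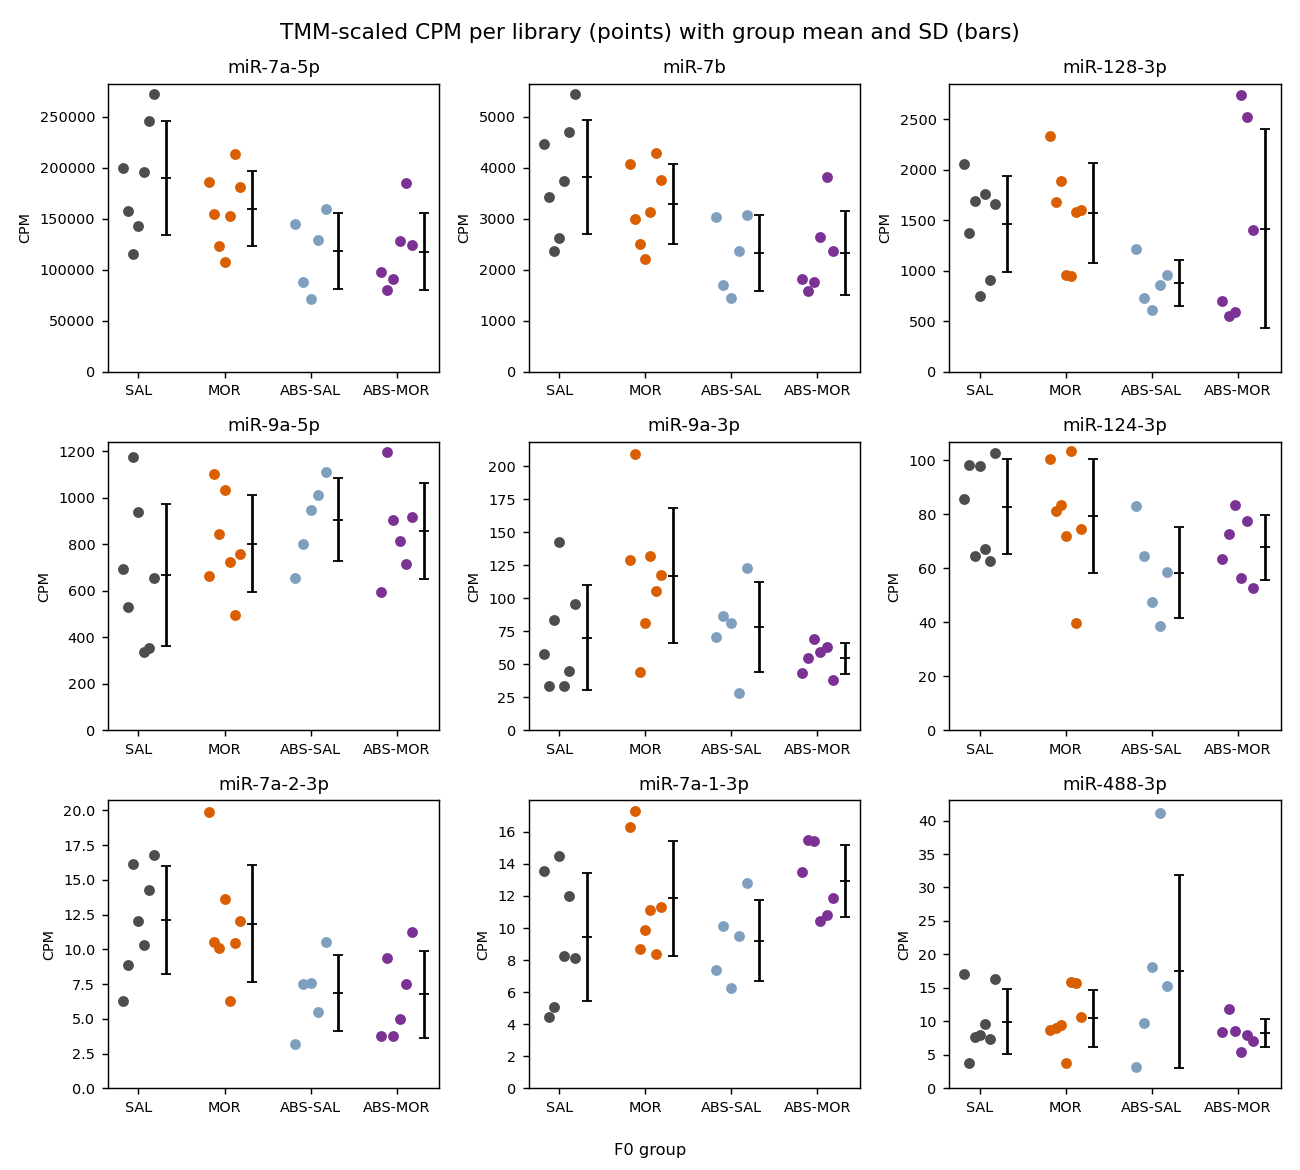
CPM of the 9 tested members in each library (points), with the mean and SD of each group (bars), every vertical axis starting at 0. Groups overlap in all 9 panels, the abstinent groups lie low for miR-7a-5p and miR-7b, and 1 F0_ABS-SAL library (library R) holds 41.1 CPM of miR-488-3p.

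Differences were tested by edgeR's quasi-likelihood test over all 317 miRNAs that passed the filter, and a member was called where its log2 fold change was over 0.58 in size and its p, after Benjamini-Hochberg adjustment, was below 0.1. Between collection times in saline rats (F0_ABS-SAL against F0_SAL), 4 of 9 members fell (miR-7a-5p, miR-7b, miR-128-3p and miR-7a-2-3p) and 0 rose. Of all tested miRNAs 33.1% were called in this comparison, 10.7% lower and 22.4% higher, against which the members' 4 falls are to be read, and miR-7a-5p and miR-7b may not be separate measurements. The median log2 fold change was -0.51 over the members and 0.00 over all miRNAs. In morphine rats (F0_ABS-MOR against F0_MOR), 2 of 9 members fell (miR-9a-3p and miR-7a-2-3p) and 0 rose, with 21.1% of all miRNAs called, 10.1% lower and 11% higher. The median was -0.33 over the members and 0.00 over all miRNAs. No group pair was without overlap for any member, and how many of all miRNAs overlapped likewise was not counted. In saline rats DESeq2 called 4 members (31.8% of all miRNAs), limma-voom called 4, 1 of them higher (30%), and edgeR on total counts alone called 2, miR-9a-5p and miR-488-3p, both higher (35%, with 34.7% higher and 0.315% lower). In morphine rats they called 1 (18.6%), 4 (28.4%; miR-7b, miR-128-3p, miR-9a-3p and miR-7a-2-3p) and 1 (22.4%, with 18% higher and 4.42% lower), all of these lower.

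Between morphine and saline, 0 of 9 members were called at either collection time, where 0% of all miRNAs were called. At an unadjusted p under 0.05, 1 member and 23 of all miRNAs differed between F0_MOR and F0_SAL, and 1 member and 4 of all miRNAs between F0_ABS-MOR and F0_ABS-SAL. DESeq2, limma-voom and edgeR on total counts alone also called 0 members in both, with 0% of all miRNAs called except in limma-voom between F0_MOR and F0_SAL (0.315%). The interaction, which is the morphine-saline difference at the end of self-administration minus that after 90 days, gave 0 members and 0% of all miRNAs, with 1 member and 10 of all miRNAs at an unadjusted p under 0.05. The comparisons share groups, F0_SAL and F0_MOR each entering a treatment and a time comparison, so their values are not independent.

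**Figure D3:**
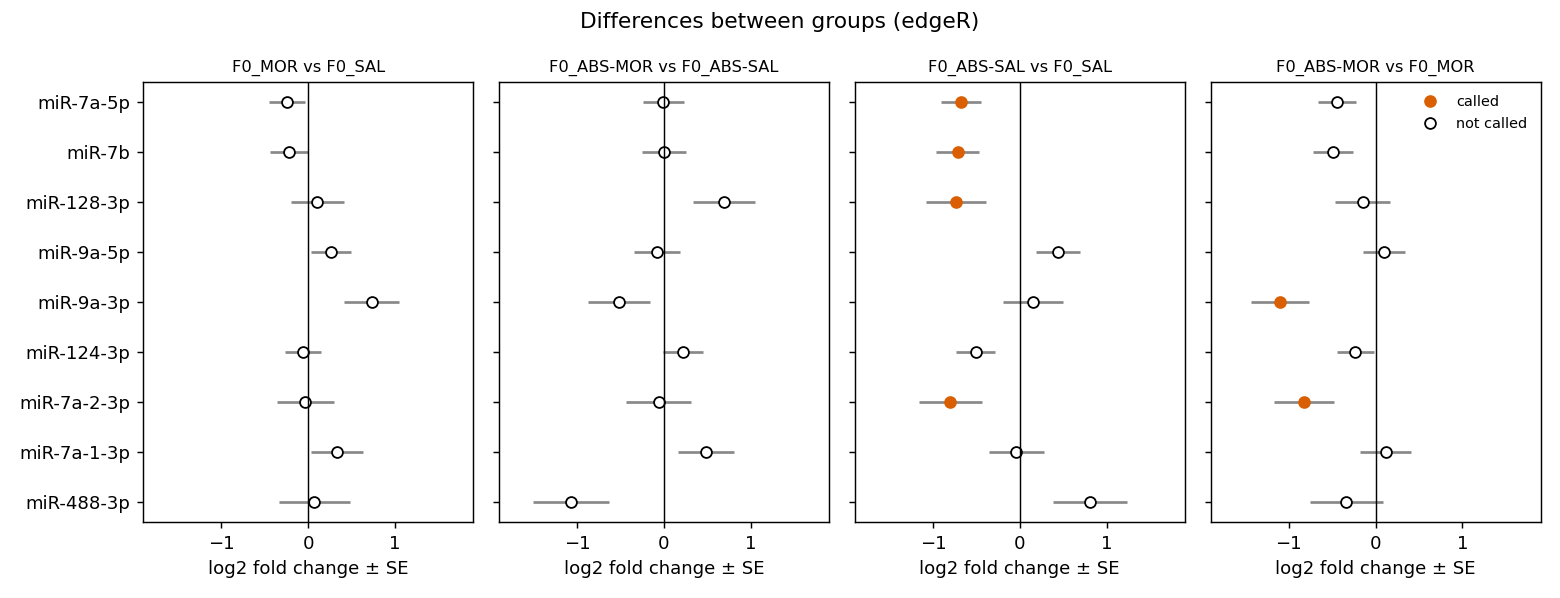
Log2 fold change with its standard error (edgeR) of the 9 tested members in both treatment and both collection-time comparisons, the first group of each title over the second, with called members in orange. Orange points appear in the collection-time panels alone, all left of 0.

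miR-7a-5p, the most abundant member, was lower in abstinent saline rats. Its level ran from 115828 to 272509 CPM in F0_SAL, with a median of 196139 CPM. In F0_ABS-SAL it was 144407, 88294, 71649, 128901 and 159695 CPM in libraries E, K, L, R and Y. All 5 F0_ABS-SAL libraries were below the F0_SAL median, and 2 were below its lowest library. The log2 fold change was -0.68 (SE 0.23, adjusted p = 0.0303 by edgeR), a 0.624-fold level. The call held without any single library, between -0.84 and -0.59. It was lost when libraries were scaled by their total count alone, at -0.30 (adjusted p = 0.307), a scaling that also moved the median of all miRNAs from 0.00 to 0.39. Relative to that median, miR-7a-5p stood at -0.68 under TMM and -0.69 under total counts. A change of scaling moves nearly all miRNAs alike, so this distance cannot show whether the fall outlasts it.

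In morphine rats the level of miR-7a-5p ran from 107412 to 213094 CPM (median 155027 CPM) in F0_MOR and from 80255 to 185400 CPM (median 110946 CPM) in F0_ABS-MOR. The groups overlapped, though 3 of 6 F0_ABS-MOR libraries were below the lowest F0_MOR library. Its log2 fold change was -0.44 (SE 0.22, adjusted p = 0.153), which did not pass. Without library S of F0_ABS-MOR, the highest of its group, it was -0.61 (adjusted p = 0.0533). The morphine-saline differences were -0.25 (95% interval -0.67 to 0.18) at the end of self-administration and -0.01 (-0.49 to 0.47) after 90 days.

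miR-7b, which carries the same seed, followed miR-7a-5p at a far lower level. Its level ran from 2365 to 5444 CPM in F0_SAL (median 3734 CPM), and was 3035, 1702, 1446, 2369 and 3079 CPM in F0_ABS-SAL libraries E, K, L, R and Y. On the log2 scale the difference was -0.72 (SE 0.25, adjusted p = 0.0317 by edgeR), again lost under total-count scaling at -0.34 (adjusted p = 0.307). In morphine rats the range was 2218 to 4279 CPM in F0_MOR and 1590 to 3806 CPM in F0_ABS-MOR, with a log2 fold change of -0.49 (SE 0.23, adjusted p = 0.133) that did not pass. It passed without library M of F0_MOR (-0.59, adjusted p = 0.0743) or library S of F0_ABS-MOR (-0.68, adjusted p = 0.0425), and in limma-voom (-0.64, adjusted p = 0.0307).

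The share of miR-7b in the summed counts of miR-7a-5p and miR-7b was nearly constant, from 1.80% to 2.19% over the 25 libraries (median 1.97%, SD 0.102). Group means lay between 1.92% (F0_ABS-MOR) and 2.01% (F0_MOR). Because the sequences differ by 1 base and the authors' alignment allowed 1 mismatch, a part of the miR-7b count could be reads of miR-7a-5p, and this was not tested. The miR-7b row is therefore an uncertain measure of its own gene.

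**Figure D4:**
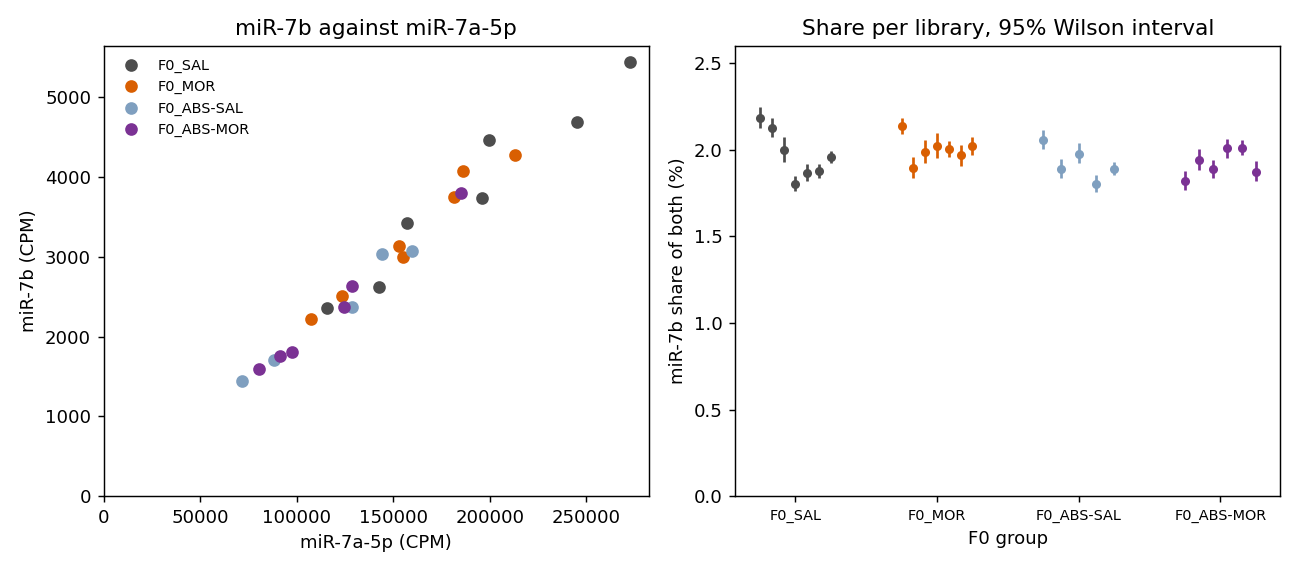
Left, miR-7b against miR-7a-5p in CPM, 1 point per library, coloured by group. Right, miR-7b as a percentage of both in each library with its 95% Wilson interval, which covers counting error only. The libraries lie along 1 line from the origin, and the share stays between 1.80% and 2.19% in all groups.

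The 3p arms of the miR-7a hairpins were present at a tiny fraction of the 5p arm. miR-7a-2-3p ran from 6.32 to 16.8 CPM in F0_SAL (median 12.1 CPM) and was 3.17, 7.50, 7.56, 5.51 and 10.6 CPM in F0_ABS-SAL libraries E, K, L, R and Y, on 6 to 33 counts. All 5 libraries were below the F0_SAL median. The log2 fold change was -0.80 (SE 0.36, adjusted p = 0.0889), and the call was lost without library W of F0_SAL or library E, K, L or R of F0_ABS-SAL, at -0.70 to -0.87 (adjusted p from 0.107 to 0.167), and under total counts at -0.41 (adjusted p = 0.447). It was also lost in limma-voom (-0.62, adjusted p = 0.158), with TMM without miR-34c-5p (-0.69, adjusted p = 0.140) and with no filter on low counts (-0.82, adjusted p = 0.184). In morphine rats it ran from 6.29 to 19.9 CPM (median 10.5 CPM) in F0_MOR and from 3.77 to 11.3 CPM (median 6.24 CPM) in F0_ABS-MOR. Its log2 fold change was -0.82 (SE 0.35, adjusted p = 0.0978), just inside the threshold, and 17 of the 25 fits that left out 1 library lost the call, at -0.63 to -0.85 (adjusted p from 0.1005 to 0.239). These were libraries F, H, P, V and W of F0_SAL, A, B, G, M and U of F0_MOR, K, R and Y of F0_ABS-SAL, and D, J, Q and S of F0_ABS-MOR. DESeq2 gave an adjusted p of 0.105, and the call was also lost under total counts, with TMM without miR-34c-5p or without miR-7a-5p and miR-7b, with no filter and in a model of the compared groups alone (adjusted p from 0.111 to 0.220).

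miR-7a-1-3p, from the hairpin within Hnrnpk, did not pass in any comparison. It ran from 4.44 to 14.5 CPM in F0_SAL, 8.37 to 17.3 CPM in F0_MOR, 6.24 to 12.8 CPM in F0_ABS-SAL and 10.5 to 15.5 CPM in F0_ABS-MOR. Its log2 fold change was -0.04 (SE 0.32) between collection times in saline rats and 0.12 (SE 0.30) in morphine rats. The ratio of miR-7a-5p to miR-7a-1-3p, which does not depend on library scaling, had a median of 18665 (F0_SAL), 12507 (F0_MOR), 11570 (F0_ABS-SAL) or 8155 (F0_ABS-MOR). In limma over 92 pairs of arms, its log2 difference was -0.68 (SE 0.32, adjusted p = 0.345) between F0_ABS-SAL and F0_SAL and -0.59 (SE 0.30, adjusted p = 0.369) between F0_ABS-MOR and F0_MOR, and neither passed. The ratio to miR-7a-2-3p differed by 0.11 (SE 0.37) and 0.32 (SE 0.35). Because the miR-7a-5p count pools 2 hairpins and each 3p arm comes from 1, neither is a ratio within a single hairpin.

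miR-128-3p was lower in abstinent saline rats at the edge of the threshold. Its level ran from 753 to 2061 CPM in F0_SAL (median 1663 CPM) and was 1218, 735, 613, 862 and 957 CPM in F0_ABS-SAL libraries E, K, L, R and Y. All 5 were below the F0_SAL median. On the log2 scale the difference was -0.73 (SE 0.34, adjusted p = 0.0998 by edgeR). The call was lost without library C, F, P or W of F0_SAL or K, L, R or Y of F0_ABS-SAL, at -0.63 to -0.77 (adjusted p from 0.115 to 0.179), and under total counts at -0.40 (adjusted p = 0.461). It was also lost with the total count as a covariate (-0.54, adjusted p = 0.192), with TMM without miR-34c-5p (-0.61, adjusted p = 0.160), with at least 10 counts in every library (-0.65, adjusted p = 0.120) and with TMM without miR-7a-5p and miR-7b (-0.72, adjusted p = 0.112).

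In morphine rats miR-128-3p had its widest spread. It ran from 953 to 2335 CPM (median 1601 CPM) in F0_MOR and was 703, 554, 592, 2737, 2519 and 1402 CPM in F0_ABS-MOR libraries D, I, J, Q, S and X. Hence 3 of these 6 libraries were below every F0_MOR library and 2 were above every one, and the log2 fold change was -0.15 (SE 0.32, adjusted p = 0.795). limma-voom, which gives less weight to libraries whose values lie further from the fit, called it lower at -0.69 (adjusted p = 0.0732). Those weights use no separate measure of library quality. Against F0_ABS-SAL, F0_ABS-MOR differed by 0.69 (95% interval -0.03 to 1.41, adjusted p = 1.00), which did not pass. At the end of self-administration the morphine-saline difference was 0.11 (-0.52 to 0.74).

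Of the miR-9a arms, miR-9a-3p was called in 1 comparison, F0_ABS-MOR against F0_MOR, and miR-9a-5p in none. miR-9a-5p ran from 337.9 to 1176 CPM (median 654 CPM) in F0_SAL, from 496 to 1104 CPM (median 756 CPM) in F0_MOR and from 594 to 1198 CPM (median 860 CPM) in F0_ABS-MOR, and was 656, 803, 948, 1014 and 1110 CPM in F0_ABS-SAL libraries E, K, L, R and Y. All 5 F0_ABS-SAL libraries were above the F0_SAL median and within its range. The log2 fold change between collection times was 0.44 (SE 0.25, adjusted p = 0.181) in saline rats and 0.09 (SE 0.24, adjusted p = 0.828) in morphine rats. Neither passed under TMM, and the saline difference passed under total counts at 0.79 (adjusted p = 0.0235) and in limma-voom at 0.67 (adjusted p = 0.0387). The morphine-saline differences were 0.26 (95% interval -0.21 to 0.74) and -0.08 (-0.62 to 0.46).

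miR-9a-3p was lower in abstinent than in nonabstinent morphine rats. It ran from 44.2 to 209 CPM in F0_MOR, with a median of 118 CPM, and was 42.9, 54.3, 69.2, 59.2, 62.8 and 37.9 CPM in F0_ABS-MOR libraries D, I, J, Q, S and X. Of the 7 F0_MOR libraries, 6 were above every F0_ABS-MOR library, and library G was the exception. The log2 fold change was -1.10 (SE 0.34, adjusted p = 0.0254 by edgeR), a 0.466-fold level. The call held without any single library (-1.25 to -0.90) and in all 12 other settings tried (-1.41 to -0.93). These settings include a stricter adjusted p and no fold threshold, both applied to the same fit, and dropping the fold threshold could not lose the call.

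In saline rats miR-9a-3p ran from 33.6 to 142.3 CPM (median 57.8 CPM) in F0_SAL and was 70.9, 86.3, 81.5, 28.1 and 123 CPM in F0_ABS-SAL libraries E, K, L, R and Y, with a log2 fold change of 0.15 (SE 0.35, adjusted p = 0.770). Against F0_SAL, F0_MOR was higher by 0.73 (SE 0.32, unadjusted p = 0.0286, adjusted p = 0.547 by edgeR), with 6 of 7 F0_MOR libraries above the F0_SAL median. This did not pass. After 90 days the difference was -0.52 (95% interval -1.25 to 0.21, adjusted p = 1.00), and 4 of 5 F0_ABS-SAL libraries were above the highest F0_ABS-MOR library. The interaction was 1.25 (SE 0.48, unadjusted p = 0.0136, adjusted p = 0.953) and did not pass, so a morphine-saline difference that changed with collection time was not shown.

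The ratio of miR-9a-5p to miR-9a-3p was 9.76 (F0_SAL), 5.46 (F0_MOR), 9.22 (F0_ABS-SAL) and 13.6 (F0_ABS-MOR) at the group median. Its range was 4.65 to 18.7 in F0_MOR and 11.2 to 23.6 in F0_ABS-MOR. The log2 difference of F0_ABS-MOR over F0_MOR was 1.10 (SE 0.35, adjusted p = 0.0909 in limma over 92 pairs, of which 6.52% were called), and the median over all pairs was 0.13. The adjusted p rose to 0.114 with a prior count of 0.5 in place of 2. The call was also lost in 13 of 25 fits without 1 library, at 0.98 to 1.15 (adjusted p from 0.102 to 0.202), namely without C or P of F0_SAL, A, B, N, T or U of F0_MOR, Y of F0_ABS-SAL, and D, I, J, Q or X of F0_ABS-MOR. The ratio did not pass between F0_ABS-SAL and F0_SAL (0.36, SE 0.37, adjusted p = 0.732), where it was -0.01 without library R, or in either treatment comparison (-0.43 and 0.31). Its interaction was -0.74 (SE 0.51, adjusted p = 0.955 in limma, where 1.09% of pairs were called).

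**Figure D5:**
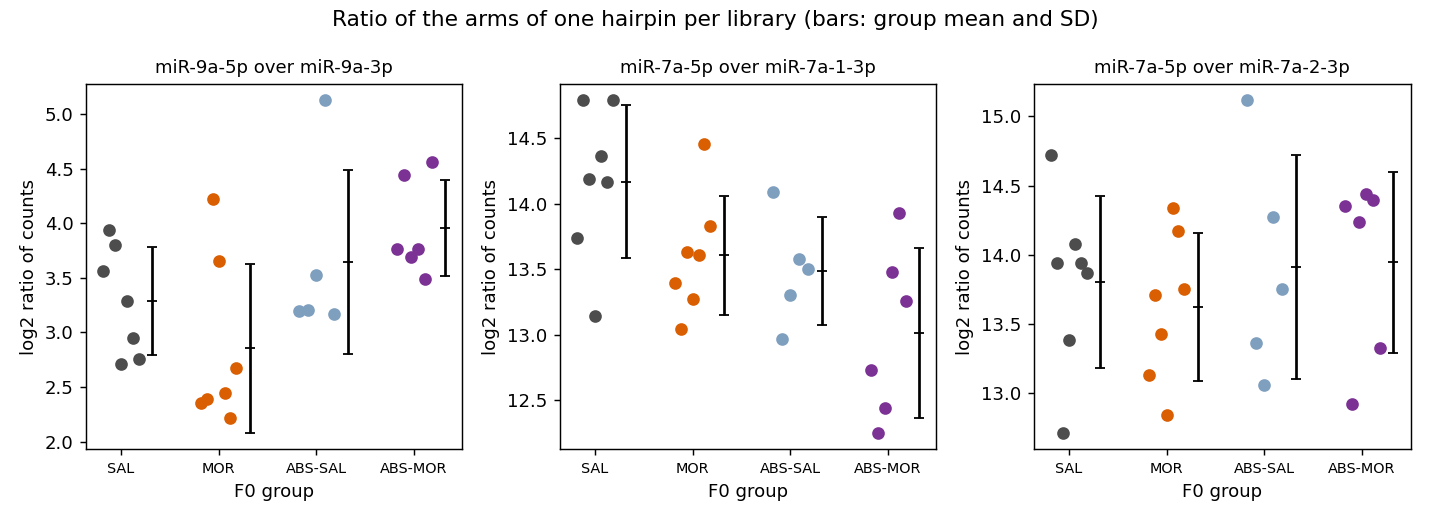
Log2 ratio of the counts of a 5p arm to those of a 3p arm in each library (points), with group mean and SD (bars). The vertical axes do not start at 0. In the miR-7a panels the 5p count pools 2 hairpins, whereas each 3p arm comes from 1. In the miR-9a panel the 6 F0_ABS-MOR libraries lie between 3.49 and 4.56, and library R of F0_ABS-SAL is the highest at 5.13.

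miR-124-3p, a hallmark of neurons, did not pass in any comparison. It ran from 62.7 to 103 CPM (median 85.7 CPM) in F0_SAL, from 39.7 to 104 CPM (median 81.3 CPM) in F0_MOR and from 52.7 to 83.5 CPM (median 68.1 CPM) in F0_ABS-MOR, and was 83.1, 64.5, 47.3, 38.6 and 58.5 CPM in F0_ABS-SAL libraries E, K, L, R and Y. F0_ABS-SAL over F0_SAL was -0.51 on the log2 scale (SE 0.23, adjusted p = 0.0857 by edgeR), which was inside the p threshold and short of the fold threshold. It passed both without H, P or V of F0_SAL or E of F0_ABS-SAL, at -0.75 to -0.60, and with the total count as a covariate, at -0.59 (adjusted p = 0.0327). In morphine rats it was -0.23 (SE 0.21, adjusted p = 0.480). The morphine-saline differences were -0.06 (95% interval -0.48 to 0.36) and 0.22 (-0.26 to 0.69). Its variation between libraries of a group, a biological coefficient of variation of 0.264 by edgeR, was the lowest of the 9 members, against a median of 0.326 over all miRNAs.

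miR-488-3p had the highest coefficient of variation of the members, 0.460. It ran from 3.80 to 17.1 CPM (median 8.04 CPM) in F0_SAL, from 3.79 to 16.0 CPM (median 9.41 CPM) in F0_MOR and from 5.48 to 11.8 CPM (median 8.19 CPM) in F0_ABS-MOR. In F0_ABS-SAL it was 3.17, 9.75, 18.1, 41.1 and 15.3 CPM in libraries E, K, L, R and Y. The highest value was in library R, which also had the highest summed muscle miRNAs (mostly miR-143-3p), and the part of those RNAs in it was not tested. F0_ABS-MOR over F0_ABS-SAL was -1.07 (SE 0.43, unadjusted p = 0.0195, adjusted p = 1.00 by edgeR), which did not pass, and it was -0.53 without library R. F0_ABS-SAL over F0_SAL was 0.81 (SE 0.42, adjusted p = 0.139), and 0.20 without library R. It passed without library C of F0_SAL (0.97, adjusted p = 0.0976) or library E of F0_ABS-SAL (0.99, adjusted p = 0.0520), under total counts (1.17, adjusted p = 0.0269) and with TMM without miR-34c-5p (0.93, adjusted p = 0.0895).

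Without library R, 2 of the 4 saline calls remained, those of miR-7a-5p and miR-7b. The count was also 2 without library W of F0_SAL or library K or L of F0_ABS-SAL. In morphine rats 15 of the 25 fits without 1 library gave 1 call in place of 2, that of miR-9a-3p. These were the fits without F, H, P, V or W of F0_SAL, A, B, G or U of F0_MOR, K, R or Y of F0_ABS-SAL, or D, J or Q of F0_ABS-MOR. The share of all miRNAs called in fits without 1 library was not counted, so these changes may not be particular to the members.

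Other miRNAs known from the nervous system (miR-9b, miR-129, miR-132, miR-137, miR-138, miR-153, miR-212, miR-218a, miR-219a, miR-326, miR-330, miR-338, miR-346, miR-383, miR-384 and miR-873, all arms) gave 27 rows, none of them of miR-137, and 8 passed the filter. They summed to 490 to 932 CPM per library in all 4 groups, far below miR-7a-5p and of the order of miR-9a-5p. Between F0_ABS-SAL and F0_SAL, 1 of 8 rose and 1 of 8 fell, beside 22.4% and 10.7% of all miRNAs, and 0 of 8 passed in each other comparison. miR-212-5p, from a cluster with miR-132 that neuronal activity induces, fell from 51.6 ± 18.8 CPM (SD, n = 7) to 26.7 ± 11.5 CPM (SD, n = 5). Its log2 fold change was -0.95 (SE 0.34, adjusted p = 0.0386 by edgeR). The other miRNAs of the cluster were not called. By edgeR, miR-212-3p was at -0.08 (adjusted p = 0.850), miR-132-3p at -0.44 (adjusted p = 0.107) and miR-132-5p at -0.38 (adjusted p = 0.326). miR-326-3p rose from 1.64 ± 1.79 to 6.00 ± 4.76 CPM (1.89, SE 0.77, adjusted p = 0.0644) at levels of a few counts.

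Members also differed in which miRNAs varied with them between libraries. After the mean of each group was removed, the Spearman correlation of log2 CPM over 25 libraries was highest for miR-7a-5p with miR-7b (0.98), miR-192-5p (0.90) and miR-132-5p (0.80). For miR-128-3p it was highest with miR-340-3p (0.85), miR-191a-3p (0.84) and miR-212-5p (0.84). For miR-124-3p it was highest with miR-471-5p (0.82), miR-880-3p (0.78) and miR-19a-3p (0.78), of which miR-880-3p was in the sperm and spermatid list. The highest correlations were lower for miR-9a-5p, with miR-181a-1-3p (0.56), miR-181d-5p (0.50) and miR-30e-3p (0.48), and for miR-9a-3p, with miR-883-5p (0.58), miR-9b-5p (0.58) and miR-32-5p (0.58). Of these partners miR-883-5p was also in the sperm and spermatid list. miR-9b-5p, like miR-132-5p and miR-212-5p above, was in the list of other nervous-system miRNAs. miR-488-3p varied most with miR-300-3p (0.60), miR-133a-3p (0.56) and miR-136-3p (0.54), of which miR-133a-3p was in the muscle list. miR-7a-2-3p had miR-463-5p (0.51), let-7f-2-3p (0.50) and miR-30c-5p (0.44), and miR-7a-1-3p had miR-362-3p (0.62), miR-350 (0.53) and miR-148b-5p (0.51). These values describe libraries that share scaling and composition, and no test was made.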

How the data were processed

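Sperm small RNA libraries of 25 rats in 4 groups were used. The authors trimmed adaptors, aligned forward reads to the rat genome (Rnor_6.0) with sRNAbench, allowing 1 mismatch, and deposited unnormalized read counts per mature miRNA, in which the smallest count above 0 is 2. The submitters' notes also name DESeq2 and rn6. Columns of the deposited matrix were assigned to groups by their names (0 columns not used). The second deposited file, of other noncoding RNAs, was not used here.

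The members and gene lists were chosen with earlier results of these data known. Counts were analysed in R 4.3.3 with edgeR 4.0.16 (filterByExpr, TMM, glmQLFit and glmQLFTest, 1 model of 4 groups), with Benjamini-Hochberg adjustment over 317 miRNAs, and calls where the adjusted p was below 0.1 and the log2 fold change over 0.58 in size. Log2 CPM used a prior count of 2. Ratios of arms were tested with limma 3.58.1. DESeq2 1.42.0, limma-voom, other scalings, filters, thresholds and leaving out each library were alternatives, and scaling without miR-7a-5p and miR-7b was added after seeing the data. The scripts were tested on simulated data. Every member is named. Other nervous-system miRNAs are named where called, and for each tested member the 3 miRNAs with the highest within-group Spearman correlation. Intervals are 95%. Total miRNA counts of 1032386 to 3203211 per library limit the precision of members near 10 CPM. Sequences and coordinates are from RefSeq (GRCr8), matched by name, and were not converted to the build of the files.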

Additional observations from a re-analysis of the deposited data

Results flagged for a closer look

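Of 56 groups of 4 to 10 libraries checked for a lone extreme value, 2 held one, where chance gives about 1 in 20, or 2.8. The log2 CPM of miR-124-3p in library T of F0_MOR was 5.35, the lowest of its group, with the next at 6.19. The log2 ratio of miR-9a-5p to miR-9a-3p in library R of F0_ABS-SAL was 5.13, the highest of its group, with the next at 3.53. Library R also had the highest summed muscle miRNAs (81891 CPM, mostly miR-143-3p), and the part of those RNAs in the ratio was not tested.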

How the results depend on the processing

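No paired analysis was possible because the columns carry no replicate numbers. Treatment comparisons and the interaction gave 0 members called under every setting tried. In saline rats the 4 members called between collection times became 2 under total-count scaling, with at least 10 counts in every library (fewer miRNAs tested) and at an adjusted p under 0.05, and 2 to 5 without 1 library. In morphine rats the 2 members called became 1 with DESeq2, total-count scaling, TMM without miR-34c-5p, TMM without miR-7a-5p and miR-7b, no filter, at least 10 counts in every library, the compared groups alone and an adjusted p under 0.05, 4 with limma-voom, and 1 to 3 without 1 library. The cause was not tested. The share of all miRNAs called is given above for the main fit, DESeq2, limma-voom and total-count scaling. For the other settings and the fits without 1 library it is not given. There a general loss of calls cannot be told from one of the members. The miR-9a arm ratio between F0_ABS-MOR and F0_MOR was 1.11 and not called with a prior count of 0.5, and 0.98 to 1.33 without 1 library.

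The alternatives include a stricter adjusted p and no fold threshold, both applied to the same fit, in which no direction could change. They also include fits without a library of a group outside the comparison, where the compared libraries stay the same. Of 988 values for single miRNAs under the alternatives, 895 kept direction and side of the threshold, 50 lost a call, 17 gained one and 26 changed sign, all of them differences that were not called. For miR-7a-1-3p between F0_ABS-SAL and F0_SAL these were 0.12 in limma-voom, 0.34 under total counts and 0.062 with TMM without miR-34c-5p, and -0.19 to 0.060 without 1 library. The miR-7a-1-3p difference between F0_ABS-MOR and F0_MOR was -0.059 with total count as a covariate. For miR-7a-5p between F0_ABS-MOR and F0_ABS-SAL they were 0.011 under total counts, 0.0009 with total count as a covariate and 0.044 with TMM without miR-7a-5p and miR-7b, and -0.19 to 0.12 without 1 library. For miR-128-3p between F0_ABS-MOR and F0_MOR they were 0.043 under total counts and 0.064 with the covariate, and -0.44 to 0.0058 without 1 library. miR-9a-3p between F0_ABS-SAL and F0_SAL was -0.0071 with the covariate and -0.080 to 0.40 without 1 library, and miR-9a-5p between F0_ABS-MOR and F0_MOR was -0.020 to 0.20 without 1 library. Ratios of arms that changed sign without 1 library ranged from -0.26 to 0.093 for miR-7a-5p over miR-7a-1-3p (interaction), -0.18 to 0.33 for miR-7a-5p over miR-7a-2-3p between F0_ABS-MOR and F0_ABS-SAL and -0.20 to 0.32 between F0_ABS-SAL and F0_SAL, and -0.013 to 0.48 for miR-9a between F0_ABS-SAL and F0_SAL. Depth limits miR-488-3p, miR-7a-1-3p and miR-7a-2-3p, with 5 to 82 counts per library.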

Other observations

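Across the 25 libraries, with group means removed, miR-7a-5p and miR-9a-5p were inversely related (Spearman rho -0.44; -0.62 with group means kept), whereas miR-7a-5p and miR-128-3p varied together (0.51; 0.55). miR-7a-5p alone takes 8.69% to 20.2% of the counts of a library, so levels in CPM are not independent of it, and these values are a description without a test. Both arms of miR-9a correlated at 0.34, and the 3p arms of the miR-7a hairpins at 0.10 with each other. Among the other miRNAs of the matrix with a RefSeq sequence, 1 shared a seed with a 3p arm of miR-7a, namely rno-miR-3065-5p with miR-7a-1-3p.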
